A study of Mus musculus with 4 samples.

Results

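The proteasome and immunoproteasome subunit genes of mouse are the 45 protein-coding genes, of 52636 gene IDs counted, whose symbol begins with Psma, Psmb, Psmc, Psmd or Psme followed by a digit. A further 4 IDs fit the symbol but are not protein-coding and were left out. RNA was sequenced from regulatory T cells of C57BL/6 mice, 7 weeks old, sorted as CD4+, CD62L+ and CD25bright. The labels give 2 libraries of genotype Vav1R63WThemis1-T-/-, named KITKO replicates 2 and 3, and 2 libraries of genotype Vav1R63W, named KI replicates 2 and 3. Both genotypes carry R63W, a knock-in allele of Vav1, an adaptor and exchange factor of T cell receptor signalling. In the KITKO mice the T cells also lack Themis1, a T cell signalling protein encoded by Themis. The transgene that deletes Themis1, the number of animals behind a library and the origin of the replicates are not given in the sources used here, and the p-values reflect no more than how far these 4 libraries scatter, which may be technical.

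The proteasome is the large protease that degrades ubiquitin-tagged proteins. Its 20S core is a barrel of alpha and beta rings, in which 3 beta subunits cut peptide bonds, and the 19S particle binds, unfolds and threads in the substrate. In lymphocytes and in cells exposed to interferon gamma, the catalytic subunits encoded by Psmb5, Psmb6 and Psmb7 are exchanged for those encoded by Psmb8, Psmb9 and Psmb10, which gives the immunoproteasome and a different choice of peptides for MHC class I. The proteasome also destroys the inhibitors that hold NF-kB in the cytoplasm, and the title of the series names the NF-kB subunit RelA. Of the 45 genes, 7 encode alpha subunits, 4 the structural beta subunits, 3 the constitutive and 3 the immune catalytic subunits, and 2 tissue-specific core subunits. The 19S particle takes 6 ATPases and 11 other subunits, with 3 assembly and associated proteins, and 5 genes encode activators. The remaining gene, Psmc3ip, encodes a meiotic recombination factor named for its binding to the Psmc3 product, and is no subunit.

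The exchange between the catalytic pairs is a matter of transcription as well as assembly, so the start regions of the catalytic genes are shown before their levels. Each window holds 250 bases before to 50 bases after the RefSeq gene start, on the gene's own strand, from RefSeq (GRCm38.p6). Capitals mark a match, on either strand, to TGACNNNGC, the core of the antioxidant response element bound by the Nfe2l1 and Nfe2l2 products, or to TTCNNNGAA, the gamma-activated sequence of genes induced by interferon gamma.
Psmb8, chr17:34197945-34198244, plus strand: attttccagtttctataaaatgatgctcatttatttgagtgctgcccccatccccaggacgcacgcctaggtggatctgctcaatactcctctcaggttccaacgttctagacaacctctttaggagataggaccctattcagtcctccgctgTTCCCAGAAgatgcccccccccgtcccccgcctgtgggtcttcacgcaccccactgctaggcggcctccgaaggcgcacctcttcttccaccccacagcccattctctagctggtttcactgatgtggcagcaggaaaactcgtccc
Psmb9, chr17:34187281-34187580, minus strand: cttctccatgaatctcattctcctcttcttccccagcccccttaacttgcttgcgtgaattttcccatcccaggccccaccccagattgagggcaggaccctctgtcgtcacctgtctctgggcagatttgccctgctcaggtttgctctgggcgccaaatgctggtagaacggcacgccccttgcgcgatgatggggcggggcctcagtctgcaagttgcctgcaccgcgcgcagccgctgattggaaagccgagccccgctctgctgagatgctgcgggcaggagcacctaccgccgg
Psmb10, chr8:105938343-105938642, minus strand: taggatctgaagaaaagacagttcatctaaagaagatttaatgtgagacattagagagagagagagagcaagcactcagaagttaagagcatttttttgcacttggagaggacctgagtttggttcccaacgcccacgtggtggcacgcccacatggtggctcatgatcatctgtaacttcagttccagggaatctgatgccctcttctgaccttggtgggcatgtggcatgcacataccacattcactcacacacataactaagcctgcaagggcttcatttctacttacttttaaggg
Psmb5, chr14:54617946-54618245, minus strand: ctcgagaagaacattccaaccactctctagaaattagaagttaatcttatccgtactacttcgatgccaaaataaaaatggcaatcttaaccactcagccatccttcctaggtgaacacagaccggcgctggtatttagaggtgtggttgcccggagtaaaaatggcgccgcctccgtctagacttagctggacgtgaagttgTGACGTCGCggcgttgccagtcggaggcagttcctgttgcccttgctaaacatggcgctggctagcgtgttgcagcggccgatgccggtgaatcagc
Psmb6, chr11:70525107-70525406, plus strand: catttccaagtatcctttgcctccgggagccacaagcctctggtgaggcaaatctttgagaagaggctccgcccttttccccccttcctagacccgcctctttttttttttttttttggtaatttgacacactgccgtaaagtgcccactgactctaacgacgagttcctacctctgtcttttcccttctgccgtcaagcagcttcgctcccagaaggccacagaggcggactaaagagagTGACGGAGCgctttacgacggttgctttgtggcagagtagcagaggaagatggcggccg

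The window of Psmb8 held TTCNNNGAA from -97 to -89, counted from the start with -1 as the base before it. Psmb5 held TGACNNNGC from -47 to -39 and Psmb6 from -9 to -1, while the windows of Psmb9 and Psmb10 held neither motif. The windows of Psmb8 and Psmb9 lie wholly within the gene spans given below, which begin further upstream. The bases before the starts of those spans are therefore not in these windows. The Psmb9 window shares 275 bases with that of Tap1, the peptide transporter gene that is read in the opposite direction. Windows were found for 38 of the 45 genes, 41 windows in all. TGACNNNGC was in 6 of them, or 14.6%, against 12.4% of all 32851 windows of the same length. Its holders were Psmb5, Psmb6, Psmc6, Psmd9, Psmd12 and Psme4. TTCNNNGAA was in 2, or 4.88%, against 8.30% of all windows, and the other holder was Psmd2. The core of the interferon-stimulated response element was in 4, or 9.76%, against 3.44% of all windows, in those of Psmb3, Psmd4, Psmd9 and Psme1. The 3 motifs were searched on both strands, and a match describes letters in a window, not binding. Psmb7, Psmb1, Psmb2, Psmc3, Psmd3, Psmd7 and Psma8 had no window in the table.

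Reads assigned to genes numbered 15953194 and 13963670 in KITKO replicates 2 and 3, and 14003757 and 14398002 in KI replicates 2 and 3. Levels are counts per megaread of these totals (CPM). Themis, the deleted gene, had 685 and 0 reads in KITKO replicates 2 and 3, against 283 and 97 reads in KI replicates 2 and 3. The library labelled KITKO replicate 2 therefore goes against its label, although gene-level counts do not show whether reads fall in the deleted exons. Every direction given here is between labels, and values without that library stand beside some of the results, not all. All 7 regulatory T cell markers were detected, with summed levels of 3053 to 3630.4 CPM. Of other cells' markers, 9 of 9 of monocytes, macrophages and dendritic cells were at 0 in all libraries, as were 6 of 8 of B cells, 2 of 4 of CD8 T cells and 1 of 3 of erythroid cells. The summed B cell markers were at 37.9 and 62.7 CPM in the libraries labelled KITKO, and at 68.0 and 68.9 CPM in the KI libraries. The summed CD8 T cell markers were at 31.9 and 19.3 CPM in the libraries labelled KITKO, and at 37.9 and 39.7 CPM in the KI libraries, and the summed erythroid markers at 7.65 CPM or less in each. The part of these cells in the results was not tested.

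The 45 genes together took 14494 and 15416 CPM in the libraries labelled KITKO, against 14141 and 14866 CPM in the KI libraries. The ranges overlapped, and the means were 14955 ± 652 CPM in the libraries labelled KITKO and 14503 ± 512 CPM in the KI libraries (SD, n = 2 each). In RNA from many cells at once, fewer cells with a transcript and less of it per cell cannot be told apart. Enough reads for a test were present for 42 of the 45 genes. With edgeR's quasi-likelihood test, 0 of these 42 passed a Benjamini-Hochberg adjusted p of 0.05, as did 0 of all 10216 genes tested (0%). limma-voom also called 0 of the 42 and 0 of 10216 (0%), and DESeq2 called 0 of 43, Psmc3ip included, against 206 of 10748 (1.92%). The authors' deposited table called 1 of 42, Psmd6, against 123 of 7865 (1.56%). At an unadjusted edgeR p under 0.05 stood 3 of the 42 genes (7.14%), Psmb8, Psmc4 and Psmd6, against 509 of all tested genes (4.98%). That count was 1 without KITKO replicate 3 and 0 without KI replicate 3.

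Fold changes of the subunit genes were small and divided between the directions. The edgeR log2 fold change, libraries labelled KITKO over KI, was above 0 for 23 of the 42 genes (54.8%), against 50.1% of all tested genes. Its median was 0.03 over the subunit genes and 0.0019 over all tested genes, and 39 of the 42 (92.9%) lay within 0.5 of 0, against 48.5% of all tested genes. Psmd6, Psmc4 and Psmd1 were the 3 outside. The median level was 272 CPM over the subunit genes and 27.4 CPM over all tested genes, and among the 2005 tested genes at 100 CPM or more 84.6% lay within 0.5. The libraries labelled KITKO did not overlap the KI libraries for 12 of the 42 genes (28.6%), against 33.8% of all tested genes. Both libraries labelled KITKO were above for 7 (16.7%, against 15.1%), namely Psma2, Psma5, Psmb1, Psmb5, Psmb8, Psmc4 and Psmd4. Both were below for 5 (11.9%, against 18.7%), namely Psmb7, Psmb10, Psmc3, Psmd2 and Psmd6. Read against all tested genes, these counts do not set the subunit genes apart.

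The median size of the log2 difference between the 2 libraries labelled KITKO was 0.35 over the subunit genes, and between the 2 KI libraries it was 0.21. The median size of the log2 difference between the labels' means, each over 2 libraries and so less variable, was 0.16. Over the 2005 genes at 100 CPM or more these medians were 0.31, 0.25 and 0.20, in the same order. Without KITKO replicate 2 the median log2 fold change was 0.14, and that of all tested genes was -0.20. In that fit 0 of 43 genes passed the adjusted threshold, and Psma1, Psma2 and Psmd6 had an unadjusted p under 0.05. A fit without 1 library leaves a label with a single library, which is assumed to vary like those of the other label.

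**Figure D1:**
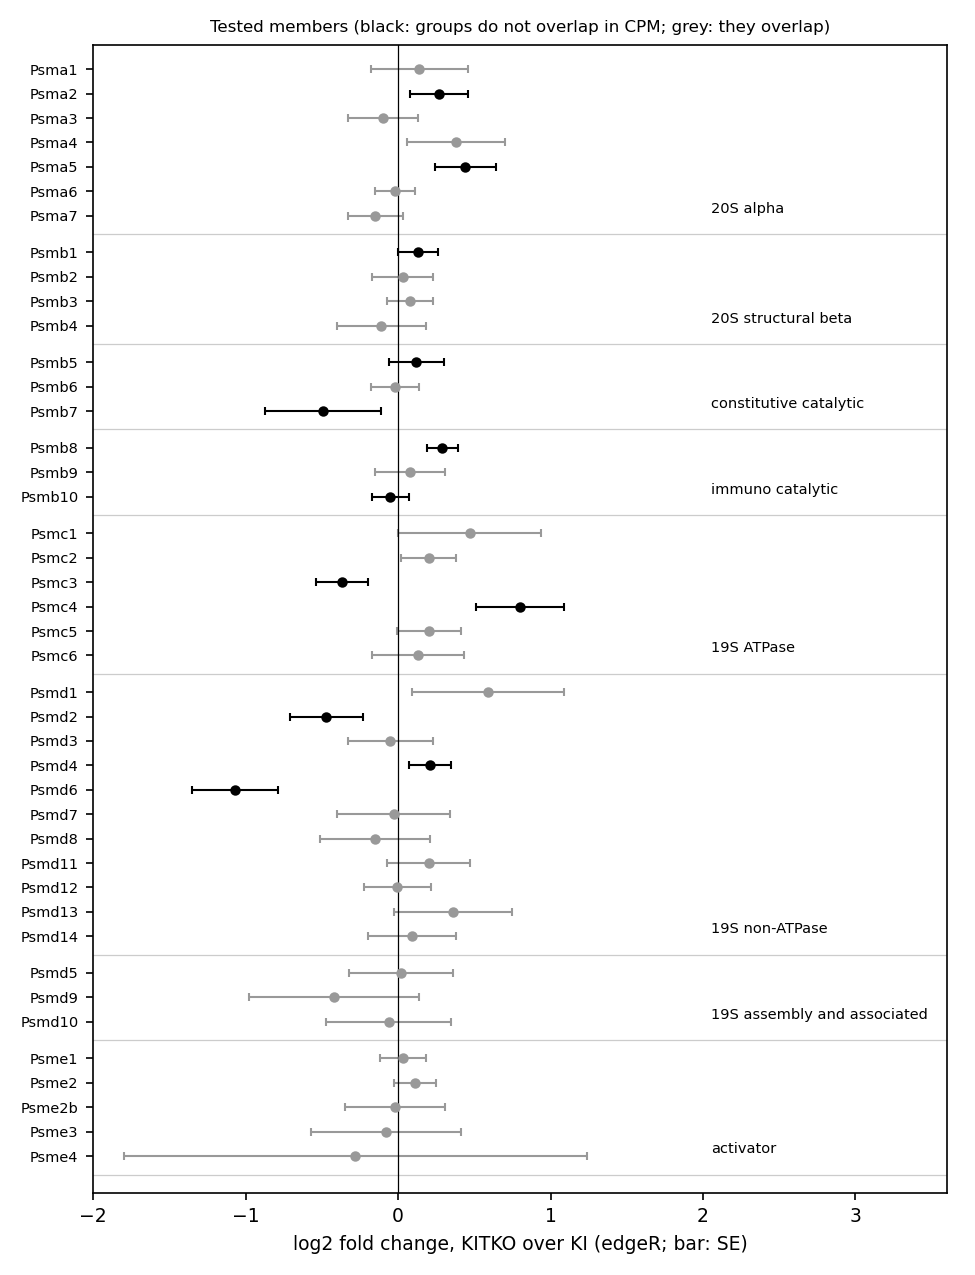
Fold changes of the 42 tested subunit genes, ordered by role. Points are edgeR log2 fold changes, libraries labelled KITKO over KI, with SE bars; black marks the 12 genes whose libraries do not overlap between labels in CPM. Values run from -1.07 for Psmd6 to 0.80 for Psmc4, and 39 of the 42 lie within 0.5 of 0.

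All 6 catalytic genes were expressed in each library. Per kilobase of transcript, Psmb8 and Psmb10 RNA exceeded that of their constitutive partners in all 4 libraries, and between labels the differences of the 6 genes were small. Psmb8 encodes the immune form of the chymotrypsin-like subunit (ENSMUSG00000024338, GRCm38 chromosome 17, 34197721 to 34201454, plus strand). It had 1130.1 and 1046 CPM in the libraries labelled KITKO, against 917 and 891 CPM in the KI libraries. Both libraries labelled KITKO were above both KI libraries. Psmb8 had a log2 fold change of 0.29 ± 0.10 (SE; edgeR adjusted p = 0.965), and 0.25 without KITKO replicate 2. The authors' deposited table has a log2 fold change of 0.29 with an adjusted p of 0.0616. With either strand column in place of the unstranded one it was 0.22 or 0.23, and the unadjusted edgeR p was no longer under 0.05. Psmb5, the constitutive partner (ENSMUSG00000022193, chromosome 14, 54614119 to 54618022, minus strand), had 217 and 209 CPM in the libraries labelled KITKO, against 201 and 197 CPM in the KI libraries. These values did not overlap either, with a log2 fold change of 0.12 ± 0.18 (SE; edgeR adjusted p = 1.000).

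Psmb9 encodes the immune form of the caspase-like subunit (ENSMUSG00000096727, chromosome 17, 34181987 to 34187764, minus strand). Its levels were 626 and 419.7 CPM in the libraries labelled KITKO, against 480.3 and 524 CPM in the KI libraries. The 2 libraries labelled KITKO lay on either side of the KI libraries, with a log2 fold change of 0.08 ± 0.23 (SE; edgeR adjusted p = 1.000), turning to -0.22 without KITKO replicate 2. Psmb6, its constitutive partner (ENSMUSG00000018286, chromosome 11, 70525367 to 70527858, plus strand), had 451 and 506 CPM in the libraries labelled KITKO, against 465 and 519.5 CPM in the KI libraries. The labels overlapped, with a log2 fold change of -0.02 ± 0.16 (SE; edgeR adjusted p = 1.000), or 0.08 without KITKO replicate 2.

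Psmb10 encodes the immune form of the trypsin-like subunit (ENSMUSG00000031897, chromosome 8, 105935735 to 105938444, minus strand). It varied little, at 572 and 575 CPM in the libraries labelled KITKO, against 595 and 609 CPM in the KI libraries. Both libraries labelled KITKO were lower, with a log2 fold change of -0.05 ± 0.12 (SE; edgeR adjusted p = 1.000). Psmb7, its constitutive partner (ENSMUSG00000026750, chromosome 2, 38588036 to 38644087, minus strand), had 57.2 and 79.6 CPM in the libraries labelled KITKO, against 85.3 and 110.4 CPM in the KI libraries. It was the lowest of the 6 per length and lower in both libraries labelled KITKO, with a log2 fold change of -0.49 ± 0.38 (SE; edgeR adjusted p = 1.000), -0.25 without KITKO replicate 2 and -0.26 without KI replicate 3. With the 2 strand columns summed, Psmb7 had 100.3 and 152 CPM in the libraries labelled KITKO, against 147 and 204 CPM in the KI libraries, and the labels overlapped.

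**Figure D2:**
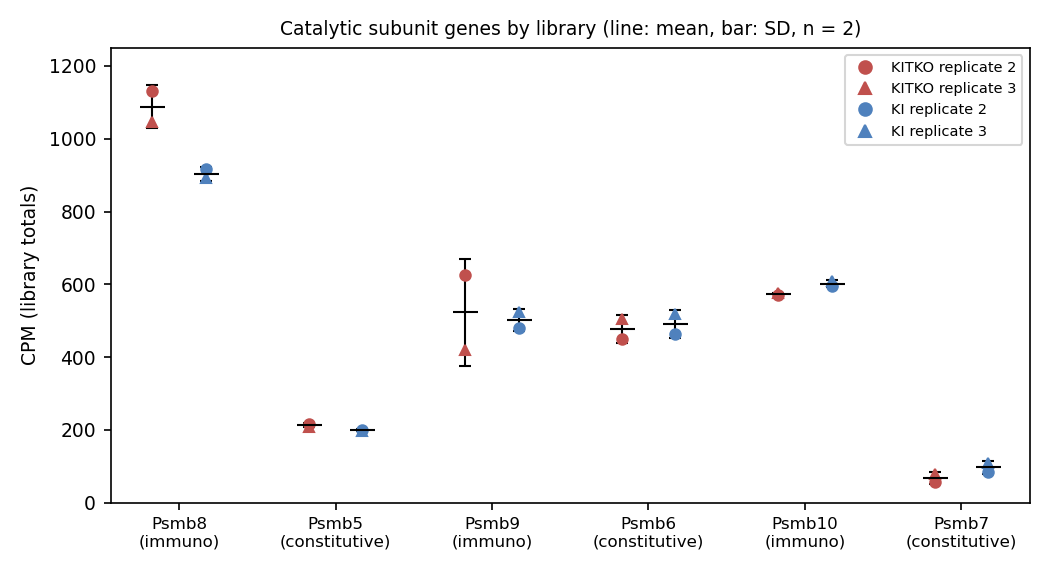
CPM of the 6 catalytic subunit genes in each library, each immune gene left of its constitutive partner. Points are single libraries, lines are means and bars are SD (n = 2); Psmb8 spans 891 to 1130.1 CPM and Psmb7 spans 57.2 to 110.4 CPM.

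Summed over the 3 immune genes, levels were 2329 and 2041 CPM in the libraries labelled KITKO, against 1993 and 2024 CPM in the KI libraries. The log2 difference was 0.12, and 0.02 without KITKO replicate 2. Of the 3 genes only Psmb8 was higher in both libraries labelled KITKO, while Psmb10 was lower in both and Psmb9 overlapped. The 3 constitutive genes summed to 725 and 795 CPM in the libraries labelled KITKO, against 751 and 827 CPM in the KI libraries, a log2 difference of -0.05 with overlapping labels.

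Levels of different genes were compared per kilobase of the principal transcript. Per length, Psmb8 made up 74.2% and 73.4% of Psmb8 and Psmb5 together in the libraries labelled KITKO, against 71.6% and 71.4% in the KI libraries. The difference of the means was 2.31 percentage points, with SDs of 0.538 points for KITKO and 0.156 for KI. Psmb9 made up 45.1% and 32.9% of Psmb9 and Psmb6 together in the libraries labelled KITKO, against 37.9% and 37.3% in the KI libraries. By this length the constitutive partner had the larger share in each library. Psmb10 made up 89.8% and 86.5% of Psmb10 and Psmb7 together in the libraries labelled KITKO, against 86.1% and 83.0% in the KI libraries. The last difference was 3.62 points, with SDs of 2.39 points for KITKO and 2.17 for KI, and it was 1.93 without KITKO replicate 2, 5.31 without KITKO replicate 3 and 2.09 without KI replicate 3. With 2 libraries against 2, an exact permutation test cannot give a p under 0.333, so the shares were not tested. The share of Psmb9 depends on which length is used. With coding length it was 60.2% and 47.4% in the libraries labelled KITKO, and 52.9% and 52.3% in the KI libraries.

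These levels carry a limit from the counting. Reads where exons of genes on opposite strands overlap are left out of the unstranded column. The library kit does not mark strand, so the sum of the 2 strand columns counts such a read for both genes. That sum is therefore an upper limit for each of them. Psmb8 shares 498 exonic bases with the antisense gene Gm20496, and its unstranded reads were 45.8% of the sum of the 2 strand columns. For Psmb7, which shares 405 exonic bases with Nek6, the figure was 50.2%. Psmb8 had 18029 unstranded of 36036 strand-summed reads in KITKO replicate 2 and 14605 of 33452 in replicate 3, against 12846 of 27505 and 12825 of 30326 in KI replicates 2 and 3, so the counted share moved between libraries too. Of the 43 genes with reads, 36 had at least 99% of the sum. The other 5 were Psmb9 (97.8%, which shares 212 exonic bases with Tap1), Psme1 (95.7%), Psmd3 (90.2%), Psma4 (87.3%) and Psmc3ip (13.4%). Psma5, Psmb5, Psmc3, Psmd1, Psmd9, Psmd13 and Psme2b also overlap exons of another gene. Although they kept at least 99% of the sum, reads in the overlap cannot be assigned. Psmb5 (109 exonic bases, with Mir686), Psmd1 and Psme2b share bases with a gene on the same strand. Reads there are left out of the unstranded and both strand columns, so the sum does not show how many were lost.

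The sum of the strand columns gives a gene all reads of its overlap, whichever gene they come from. With it in place of the unstranded column, Psmb8 made up 85.2% and 86.3% of its pair in the libraries labelled KITKO, against 84.4% and 85.5% in the KI libraries. The labels then overlapped in this share, and the difference was 0.825 points. The strand-summed level of Psmb8 itself did not overlap between labels. It was 2071 and 2176 CPM in the libraries labelled KITKO, against 1794 and 1913 CPM in the KI libraries. On the same reads Psmb10 made up 82.2% and 75.2% of its pair in the libraries labelled KITKO, against 76.5% and 70.6% in the KI libraries, and here too they overlapped. Psmb5 has a limit of its own, since 57.1% of the 50-base stretches of its transcript occur in another gene, mainly the processed pseudogene Gm3375, and reads that map to more than 1 place are not counted. With length limited to stretches found in no other gene, the share of Psmb8 was 56.1% and 55.1% in the libraries labelled KITKO, against 52.8% and 52.6% in the KI libraries. Psmb8 was above Psmb5 and Psmb10 above Psmb7 in all 4 libraries under each of these counts and lengths.

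**Figure D3:**
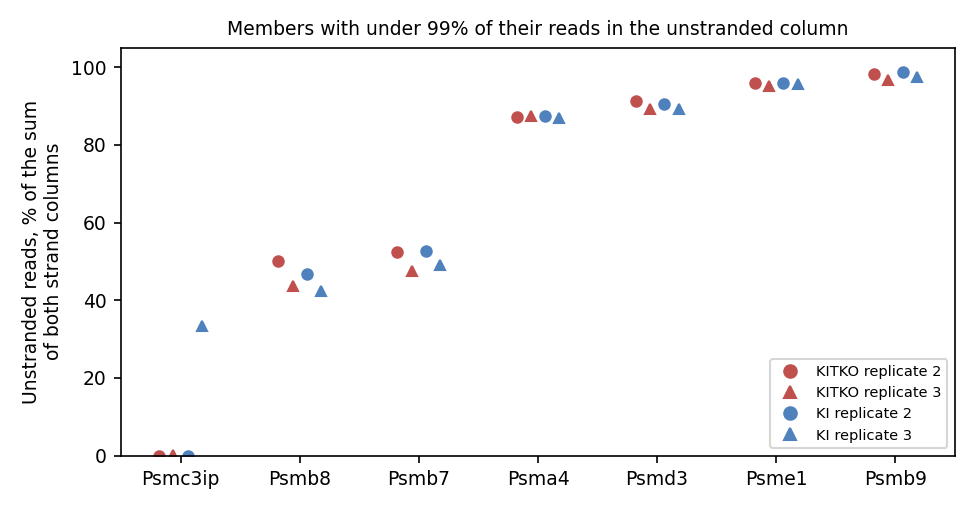
Reads in the unstranded column as a percentage of the sum of the 2 strand columns, per library, for the 7 genes under 99%. Psmb8 and Psmb7 lie between 42.3% and 52.8%, while Psmb9 lies between 96.6% and 98.7%.

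The tissue-specific core genes were not detected. Psma8, the alpha subunit of spermatocytes, and Psmb11, the catalytic subunit of thymic cortical epithelium, had 0 reads in each library, which allows up to 0.188 to 0.215 CPM per library (3 reads). Psmc3ip had 0 and 1 reads in the libraries labelled KITKO, against 0 and 188 reads in the KI libraries. It overlaps 385 exonic bases of Mlx on the other strand. Its strand-summed reads, which can include reads of Mlx, were 252 and 498 in the libraries labelled KITKO, against 97 and 564 in the KI libraries. Neither the low unstranded counts nor the sums therefore say much about its level.

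The 7 alpha subunit genes, which form the outer rings and the gate of the core, summed to 3203 and 3808 CPM in the libraries labelled KITKO, against 3316 and 3344 CPM in the KI libraries. Their log2 fold changes ran from -0.15 to 0.44, 4 above 0 and 3 below, and 0 passed with edgeR. Psma5 had 281 and 243 CPM in the libraries labelled KITKO, against 179.6 and 212 CPM in the KI libraries. Both libraries labelled KITKO were higher, with a log2 fold change of 0.44 ± 0.20 (SE; edgeR adjusted p = 1.000). Of its 50-base stretches 55.4% occur elsewhere, mainly in the pseudogene Gm8394. Psma2 had 858 and 1122 CPM in the libraries labelled KITKO, against 821 and 851 CPM in the KI libraries. KITKO replicate 3 stood apart, and the log2 fold change of 0.27 ± 0.19 (SE; edgeR adjusted p = 1.000) was 0.03 without it. Without KITKO replicate 2 it was 0.47. Psma7, at 595 and 479 CPM in the libraries labelled KITKO against 548 and 662 CPM in the KI libraries, overlapped between labels. So did Psma3, at 416 and 598 CPM in the libraries labelled KITKO against 555 and 554 CPM in the KI libraries.

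The 4 structural beta genes, whose products sit in the beta rings and do not cut, had log2 fold changes from -0.11 to 0.13. Psmb1 had 778 and 801 CPM in the libraries labelled KITKO, against 697 and 769 CPM in the KI libraries. Its libraries did not overlap, with a log2 fold change of 0.13 ± 0.13 (SE; edgeR adjusted p = 1.000), 0.04 without KI replicate 2 and 0.23 without KI replicate 3. Psmb3 had 673 and 785 CPM in the libraries labelled KITKO, against 727 and 683 CPM in the KI libraries. Psmb4 had 270.4 and 426 CPM in the libraries labelled KITKO, against 355 and 411 CPM in the KI libraries. Both overlapped, and Psmb4 varied more between the libraries labelled KITKO than between labels.

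The 6 ATPase genes of the 19S particle, whose products form the ring that unfolds substrates, summed to 1542 and 1676 CPM in the libraries labelled KITKO, against 1503 and 1375 CPM in the KI libraries. That is a log2 difference of 0.16 with no overlap. It was 0.22 without KITKO replicate 2 and 0.10 without KITKO replicate 3 or KI replicate 3. Of the 6 genes, 5 had a log2 fold change above 0. Only Psmc4 was higher in both libraries labelled KITKO, while Psmc3 was lower in both. Psmc1, Psmc2, Psmc5 and Psmc6 overlapped between labels, so the sum does not show a rise shared by the ATPase genes. Psmc4 (ENSMUSG00000030603, chromosome 7, 28041707 to 28050101, minus strand) had 301 and 389 CPM in the libraries labelled KITKO, against 245 and 159 CPM in the KI libraries. It was higher in both libraries labelled KITKO, with the largest positive log2 fold change among the 42 tested genes, 0.80 ± 0.29 (SE; edgeR adjusted p = 0.998). The KI libraries were themselves apart, and the log2 fold change was 0.54 to 1.12 when single libraries were left out, with 0.99 without KITKO replicate 2. Psmc3 had 354 and 316 CPM in the libraries labelled KITKO, against 406 and 472 CPM in the KI libraries. It was the only ATPase gene below 0, at -0.37 ± 0.17 on the log2 scale (SE; edgeR adjusted p = 1.000), and at -0.23 without KI replicate 3. Psmc2 had 345 and 274 CPM in the libraries labelled KITKO, against 269 and 279 CPM in the KI libraries, and overlapped.

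Psmd6 encodes a scaffold subunit of the 19S lid and had the largest fold change of the 42 tested genes (ENSMUSG00000021737, chromosome 14, 14112174 to 14120984, minus strand). It had 85.2 and 120 CPM in the libraries labelled KITKO, against 213 and 227 CPM in the KI libraries. Both libraries labelled KITKO were well below both KI libraries, and the means were 103 ± 24.6 CPM under the label KITKO and 220 ± 10.5 CPM under KI (SD, n = 2 each). Psmd6 had a log2 fold change of -1.07 ± 0.28 (SE; edgeR adjusted p = 0.900), and -0.83 without KITKO replicate 2. DESeq2 gave a log2 fold change of -1.07 with an adjusted p of 0.181, and limma-voom gave an adjusted p of 0.821. The authors' deposited table has a log2 fold change of -0.94 with an adjusted p of 0.0165, so its fit is not the DESeq2 fit run here. The call therefore differs between that table and the 3 tests run here, while the direction was the same in each. None of its 50-base stretches occur in another gene, and its unstranded count kept the reads of both strand columns.

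The other 10 lid and base genes had log2 fold changes of -0.47 to 0.59. Psmd2, a base scaffold that receives ubiquitin shuttles, had 292 and 317 CPM in the libraries labelled KITKO, against 352 and 506 CPM in the KI libraries. It was lower in both, at -0.47 ± 0.24 on the log2 scale (SE; edgeR adjusted p = 1.000), and at -0.16 without KI replicate 3. Psmd4, a ubiquitin receptor, had 442 and 397 CPM in the libraries labelled KITKO, against 383 and 356 CPM in the KI libraries. It was higher in both, with a log2 fold change of 0.21 ± 0.14 (SE; edgeR adjusted p = 1.000). Psmd1, the other large base scaffold, had 256 and 133 CPM in the libraries labelled KITKO, against 88.6 and 172 CPM in the KI libraries. The labels overlapped, and its log2 fold change of 0.59 ± 0.50 (SE; edgeR adjusted p = 1.000) was 0.06 without KITKO replicate 2. The deubiquitinase gene Psmd14 and the lid genes Psmd3, Psmd7, Psmd8, Psmd11, Psmd12 and Psmd13 all overlapped between labels.

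Assembly and associated proteins of the 19S particle showed the same overlap. Psmd5 had 282 and 199 CPM in the libraries labelled KITKO, against 182 and 297 CPM in the KI libraries. Psmd9 had 29.1 and 57.9 CPM in the libraries labelled KITKO, against 55.2 and 64.0 CPM in the KI libraries. Psmd10, which encodes gankyrin, had 71.0 and 123 CPM in the libraries labelled KITKO, against 93.4 and 114 CPM in the KI libraries. All 3 had an edgeR adjusted p of 1.000.

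The activator genes split by level. Psme1 and Psme2 encode the 2 subunits of the interferon-inducible cap that opens the core to peptides. Psme1 had 589.8 and 670.1 CPM in the libraries labelled KITKO, against 675 and 582 CPM in the KI libraries. Psme2 had 823 and 958 CPM in the libraries labelled KITKO, against 833 and 850 CPM in the KI libraries. Both overlapped between labels, with log2 fold changes of 0.03 ± 0.15 and 0.11 ± 0.14 (SE; edgeR adjusted p = 1.000 each). Psme2b has no introns in its principal transcript and shares 69.3% of its 50-base stretches with Psme2, so its 70.7 to 87.1 CPM, from reads that map to 1 place, leave out those that fit both genes. Psme3, the nuclear relative of the cap, had 185 and 77.1 CPM in the libraries labelled KITKO, against 163 and 119 CPM in the KI libraries. Psme4, a large nuclear activator, had 2.76 and 28.5 CPM in the libraries labelled KITKO, against 10.1 and 28.8 CPM in the KI libraries. Its spread within each label was the widest of the 42 genes, with an SE of 1.52 on the log2 scale.

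Per kilobase of principal transcript, averaged over the 4 libraries, Psmb3 and Psme2 led with 936 and 900.2 CPM per kilobase. Psma7, Psmb8, Psmb6 and Psme1 followed at 625, 612, 608 and 566 CPM per kilobase, and the ranges of these neighbours over libraries overlapped. Psmb10 was at 448 and Psmb9 at 379 CPM per kilobase, while Psmb5 was at 229 and Psmb7 at 71.7. The ranges did not overlap between Psme2 and Psma7 or between Psme1 and Psma6, the next gene down, and most other neighbours in the order overlapped. The 17 core genes with reads spanned 13.1-fold in RNA, or 3.38-fold among the alpha genes. For Psmb7 and Psmb8, as above, about as many reads were left out as were kept, and some of those left out may belong to the overlapping gene. Of the 50-base stretches of Psmb3 and Psme2, 55.8% and 59.3% occur in other genes. The 19S genes were lower, with medians of 177 CPM per kilobase over the ATPase genes and 113 over the other subunits, beside 314 over the alpha genes. Psmd9 and Psme4 came last of the tested genes, at 19.9 and 2.70 CPM per kilobase, and were below each gene before them in every library.

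**Figure D4:**
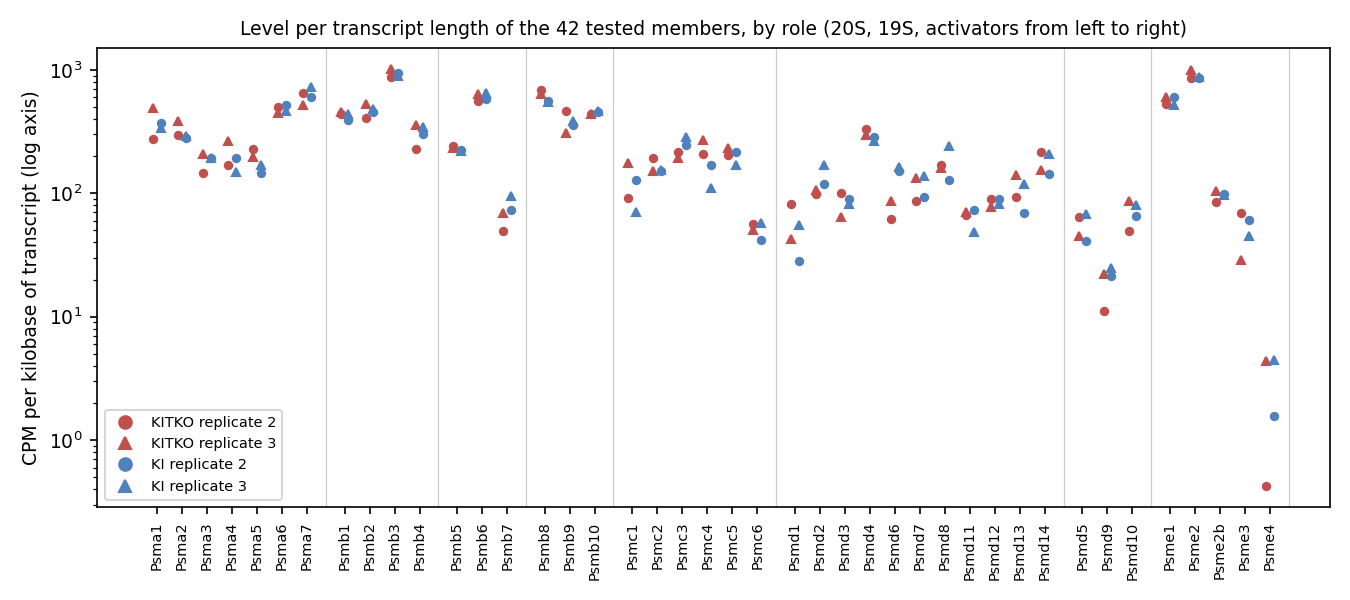
CPM per kilobase of principal transcript (log axis) of the 42 tested genes in each library, in blocks by role. Psmb3 is highest, with a mean of 936, and Psme4 is lowest, with a mean of 2.70 and the widest spread between libraries.

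Genes that build, regulate or work with the proteasome were read from 4 further lists, and 0 genes of each passed with edgeR. Among 7 tested assembly factors and regulators of the finished particle, 3 had a log2 fold change above 0 and 4 below, with a median of -0.17. Ecpas, which encodes a proteasome adaptor and scaffold, had 68.1 and 28.6 CPM in the libraries labelled KITKO, against 28.6 and 25.7 CPM in the KI libraries. Psmg2, an assembly chaperone of the alpha ring, had 64.8 and 63.7 CPM in the libraries labelled KITKO, against 72.3 and 132 CPM in the KI libraries. KITKO replicate 2 stood apart for Ecpas, and KI replicate 3 for Psmg2.

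Among 10 regulators of proteasome genes, 4 were above 0 and 6 below, with a median of -0.11. Irf1, a transcription factor of the immune catalytic genes, had 327 and 221 CPM in the libraries labelled KITKO, against 209 and 204 CPM in the KI libraries. The log2 fold change of Irf1 came to 0.43 ± 0.24 (SE; edgeR adjusted p = 1.000), with KITKO replicate 2 the highest of the 4, as it was for Psmb8 and Psmb9, while it was the lowest for Psmb10. Jak1, a kinase of interferon receptors, had 486 and 437 CPM in the libraries labelled KITKO, against 517 and 530.5 CPM in the KI libraries.

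Among 14 ubiquitin receptors, shuttles and deubiquitinases, 9 were above 0 and 5 below, with a median of 0.16. Ubqln1, a shuttle, had 145 and 46.3 CPM in the libraries labelled KITKO, against 162 and 268 CPM in the KI libraries, a log2 fold change of -1.17 ± 0.64 (SE; edgeR adjusted p = 1.000). Zfand5, a proteasome-binding zinc finger protein, had 335 and 469 reads in the libraries labelled KITKO, against 510 and 1503 reads in the KI libraries.

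Among 11 genes that supply and load peptides on MHC class I, 9 were above 0 and 2 below, with a median of 0.12, against 0.0019 over all tested genes. Over all tested genes 50.1% were above 0. Both libraries labelled KITKO were above the KI libraries for 5 of the 11 and below for 1, against 15.1% and 18.7% of all tested genes. Tap2, 1 of the 5, has the counting limit of Psmb8, as its unstranded reads were 49.4% of the sum of the strand columns. Tap1, the peptide transporter subunit whose start region Psmb9 shares, had 643 and 610.1 CPM in the libraries labelled KITKO, against 427 and 532 CPM in the KI libraries. The log2 fold change of Tap1 came to 0.41 ± 0.17 (SE; edgeR adjusted p = 1.000), while Psmb9 overlapped between labels. Canx, the chaperone calnexin, had 240.1 and 237 CPM in the libraries labelled KITKO, against 137 and 184 CPM in the KI libraries. It was higher in both libraries labelled KITKO, with a log2 fold change of 0.60 ± 0.24 (SE; edgeR adjusted p = 1.000).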

How the data were processed

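RNA was sequenced from 2 libraries per genotype of sorted regulatory T cells. Per the labels and the series' design text, the authors checked reads with FastQC, trimmed them with Trim Galore, aligned them with STAR and summarised the steps with MultiQC. Tool versions were not given there. Ensembl release 90 stands in the design text and mm9 in the submitters' processing notes, and no coordinate of the files was used. The deposited count files give, per gene, raw counts without strand and for each strand, in the layout that STAR writes. The deposited series table repeats the unstranded counts and adds the authors' DESeq2 comparison as a linear ratio (fold change), its log2 value, p-values and their adjusted p-values, per the file headers. Its normalised columns, counts that the authors divided by size factors and rounded, are recorded as a score and were not used, per the file headers. The library kit named in the labels does not mark strand.

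The unstranded counts equalled the series table for all 52636 gene IDs in each library. The summary lines held 22.6%, 23.1%, 21.1% and 21.5% of the reads of KITKO replicates 2 and 3 and KI replicates 2 and 3, and were left out. Symbols matched 52403 IDs. CPM are reads per megaread assigned to genes, and levels per length divide CPM by the principal transcript of GENCODE M21 (GRCm38), matched by gene ID. Genes were tested with edgeR 4.0.16 in R 4.3.3 (TMM, filterByExpr with a minimum count of 10 and a minimum total of 15, robust quasi-likelihood F test, two-sided, no block), fitted on all genes and adjusted over all 10216 tested, with the threshold at 0.05. Summed levels and shares were given without a test. Alternatives were DESeq2 1.42.0, limma-voom (limma 3.58.1), DESeq2 size factors, library totals alone, no count filter, 1 CPM in 2 libraries, the strand columns, the replicate number as a block, and leaving out each library. Other lengths and the sum of both strand columns were chosen after seeing the data. Tables and motif searches used Python 3.11.15 with pandas 2.3.3. Same-numbered libraries did not deviate together (Pearson r = 0.018 over genes), so the numbers were not taken to pair them.

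The members and lists were chosen with earlier results of these data known. Genes named with values are the 6 catalytic genes, per role the 2 with the smallest p in each direction, those called in a model or the authors' table, those with 3 or fewer reads beside over 50 in another library, those not tested, and 2 per pathway list. The limit of 3 reads for a gene at 0 covers counting error only, and PCR copies are not independent molecules. Paaf1 of the assembly list was not matched.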

Additional observations from a re-analysis of the deposited data

How the results depend on the processing

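No alternative gave a subunit gene an edgeR or limma-voom adjusted p under 0.05, and DESeq2 called 206 genes, none of them a subunit gene. The subunit genes with an unadjusted p under 0.05 numbered 3, against 1 (Psmd6) with library totals alone and 0 to 3 when single libraries were left out, where the p rests on the spread of the other label, with 0 without KI replicate 3, 1 without KITKO replicate 3, and 2 in the fit with the replicate number as a block. That block called 0 genes, and with it Psmd6 had a log2 fold change of -1.09 (edgeR adjusted p = 1.000). The numbers share only a label, and with 2 pairs the data give no hint of a pairing (r = 0.018).

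The share of Psmb8 against Psmb5 was 2.31 points higher in the libraries labelled KITKO. It was 1.66 without length, 1.71 with coding length, 2.87 with all exons, 2.89 with 50-base stretches found in no other gene, 0.878 and 0.780 with the first and second strand columns and 0.825 with their sum, and 1.93 to 2.69 when single libraries were left out. The share of Psmb10 against Psmb7 was 6.06 points higher with the first strand column, against 3.62 with the unstranded one. The share of Psmb10 was 1.93 to 5.31 points higher when single libraries were left out. With the other scalings and strand columns, the log2 differences of the 7 summed levels by role shifted by less than the spread between replicates. Leaving out a single library cannot shift them by more than this spread, so those fits are no check on it. In those fits the difference kept its sign for the immune catalytic and the ATPase genes and changed sign for each of the other roles. Among the immune catalytic genes only Psmb8 was higher in both libraries labelled KITKO, and Psmb10 was lower in both. Among the ATPase genes these were Psmc4 and Psmc3.

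Psmb6 turned from -0.02 to 0.0047 on the log2 scale with the second strand column. When single libraries were left out, these log2 fold changes changed sign: Psmb6 (-0.13 to 0.09), Psmb9 (-0.22 to 0.31), Psma3 (-0.42 to 0.15), Psma7 (-0.31 to 0.01), Psmb3 (-0.07 to 0.20), Psmb4 (-0.51 to 0.20), Psmd5 (-0.31 to 0.45), Psmd10 (-0.55 to 0.29), Psme1 (-0.09 to 0.14), Psme2 (-0.04 to 0.23), Psme3 (-0.82 to 0.40) and Psme4 (-2.83 to 0.69). The other 15 named genes kept their sign under the alternatives run. The cause was not tested. Psmd6 is called in the authors' deposited table and in none of the tests run here.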
